A study of Mus musculus with 8 samples.

Results

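Thymic epithelial cells (TECs) taken straight from the embryonic thymus were compared with TECs grown for 7 days as organoids, to describe which transcripts still separated week-old organoids from the tissue of origin. The members are the 4 libraries whose titles name freshly extracted TECs or TEC organoids at day 7 (D7), 2 of each, out of 8 libraries in the series. The other 4, TECs in a 2D monolayer and organoids at day 3 (D3), entered the model and are given only as side values. All samples came from wild-type C57BL/6J mouse embryos at E16.5 and carried the label of no treatment, and every library was labelled as a separate biological replicate. For fresh TECs, lobes were digested with TrypLE and DNase, and EpCAM+ cells negative for CD45, Ter119, CD31 and PDGFR were sorted and lysed at once. For organoids, cells sorted in the same way grew in growth factor-reduced Matrigel in a defined medium holding FGF7, and with thiazovivin at first. These organoids were freed in cold PBS and lysed with no second digestion or sort, so digestion, sorting and loss of the thymic surroundings cannot be told apart in this comparison. Per the study's methods, the 2D TECs grew on laminin-coated plates in the same medium and were lysed after 3 days. RNA was measured in bulk with QuantSeq, a method that counts transcripts by their 3′ ends, and in such data fewer cells of a type and less RNA per cell cannot be told apart.

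TECs build the scaffold in which T cells mature. Cortical TECs, under the transcription factor FOXN1, make Notch ligand, chemokines, a thymus-specific proteasome and thymus-specific proteases, and show peptides on MHC molecules to developing thymocytes. Medullary TECs display tissue-restricted antigens and depend on signals from thymocytes through receptors of the TNF family. In the thymus, TECs touch thymocytes, mesenchyme and vessels, none of which was added to the organoid cultures.

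Between 5084715 and 7612532 reads were counted on genes per library over the series, and fresh TECs and D7 organoids spanned that range. Values are CPM, that is read counts scaled to a common library total with the trimmed mean of M values. Of 8 pan-epithelial and TEC sort markers, 5 (62.5%, against 18.8% of all genes tested) were higher in fresh TECs, among them *Krt8*, *Krt18* and *Foxn1*. Another 2 (25%, against 18.6%) were higher in D7 organoids. The epithelial genes *Epcam* and *Cdh1* were read in all 4 libraries. *Epcam* had 188 and 202 CPM in fresh TECs and 439 and 437 CPM in D7 organoids, and *Cdh1*, the epithelial cadherin, had 440.2 and 419.6 CPM in fresh TECs and 503 and 564 CPM in D7 organoids. Thymocyte markers did not sit equally in the replicates. Of 20 such markers 15 passed the filter, and their summed level was 1272 and 550.5 CPM in fresh TECs and 21.2 and 27.7 CPM in D7 organoids. The defining markers *Cd3g* and *Il7r* were at 0 or 1 count in D7 organoids, and fresh replicate 1 held 2.52 times the level of fresh replicate 2 in the median over the 15 (range 1.64 to 4.05). Markers of mesenchyme (51.5 and 54.9 CPM in fresh TECs and 81.5 and 73.4 CPM in D7 organoids), endothelium, red cells and myeloid cells each summed to at most 81.5 CPM in these libraries. *Xist* and the Y-linked *Ddx3y* were both read in every library.

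Of 14791 genes that reached 1 CPM in 2 or more of these libraries, 5521 (37.3%) differed at an adjusted p of at most 0.05 by edgeR's quasi-likelihood test. Of these, 2777 (18.8%) were higher in fresh TECs and 2744 (18.6%) were higher in D7 organoids, and the median log2 fold change over all genes was -5.24e-05. Shares of a gene list below are to be read beside these 18.8% and 18.6%. The lists were written with earlier results of these data known, so their shares are a description only. A gene near 0 in 1 group passed the filter only through the other group, so the filter fixed its direction. Log2 fold changes are given for fresh TECs over D7 organoids throughout, so that a negative value is a higher level in organoids. At least 4-fold differences numbered 979 in favour of fresh TECs and 955 in favour of organoids, and at least 32-fold differences numbered 284 and 222. The genes higher in fresh TECs made up 234950.0 and 219945 CPM of the fresh libraries and 106942 and 95443 CPM of the D7 libraries. Fresh and D7 libraries did not overlap for 71.5% of all genes tested, and only 3 of the genes called had overlapping groups. At the other end, 748 genes (5.06%) had a 95% interval of the log2 fold change within 0.5 of 0. Without D7 replicate 2, the counts were 1600 and 1736.

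**Figure D1:**
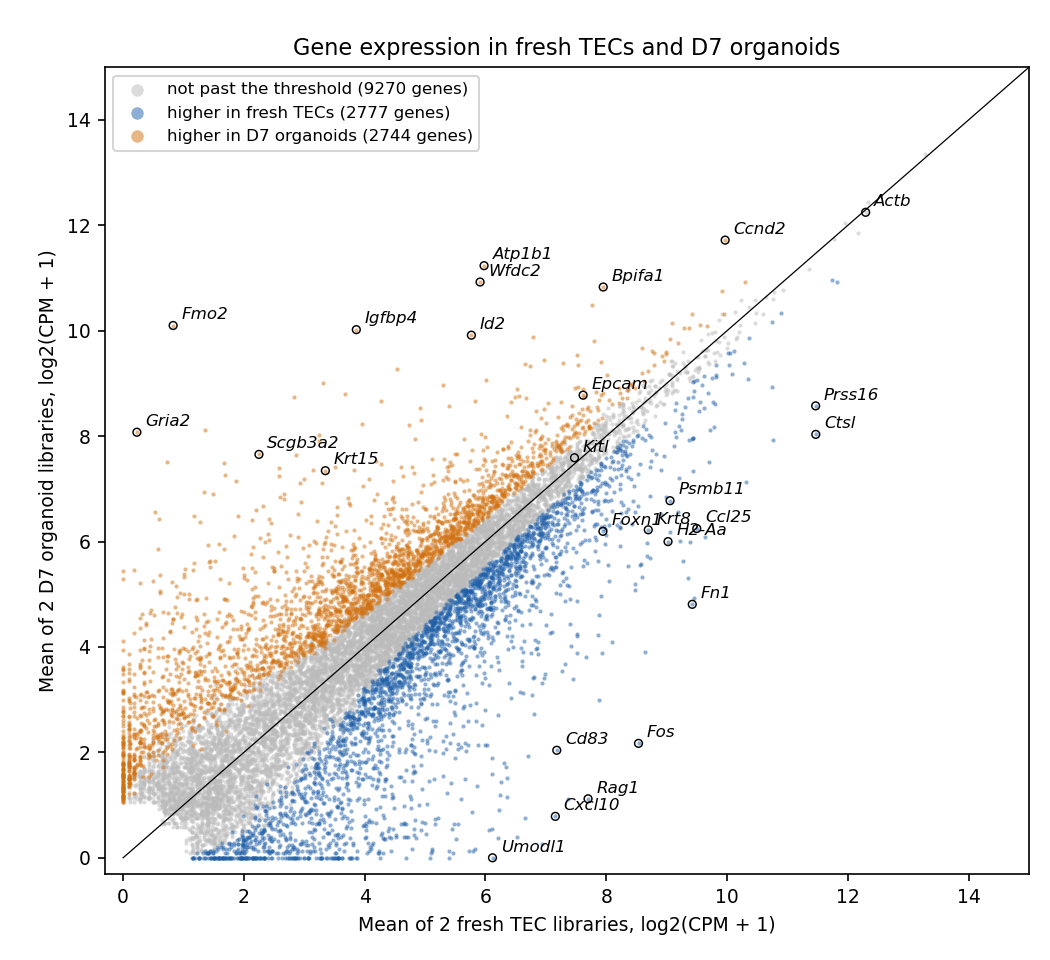
Mean log2(CPM + 1) of the 2 fresh TEC libraries (x axis) against the 2 D7 organoid libraries (y axis) for 14791 genes, with the line of equal level. The 2777 genes higher in fresh TECs are in blue, toward the lower right, and the 2744 higher in D7 organoids in orange, toward the upper left, and circled genes are described in the text.

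Of 17 cortical TEC genes, 15 were higher in fresh TECs (88.2%, against 18.8% of all genes tested), 0 were higher in D7 organoids and 2 did not pass the test, with a median log2 fold change of 2.48. Their summed level was 11859.8 and 11989 CPM in fresh TECs and 2376 and 2232 CPM in D7 organoids, beside 1287 and 1283 CPM in D3 organoids. *Prss16*, which encodes the thymus-specific serine protease, had 2800.2 and 2861 CPM in fresh TECs and 376 and 384 CPM in D7 organoids. *Prss16* was 7.45-fold higher in fresh TECs (log2 fold change 2.90, standard error 0.14, adjusted p = 6.4e-11). *Ctsl*, encoding the cathepsin that cuts peptides for MHC class II in the cortex, had 2917 and 2751 CPM in fresh TECs and 293 and 229 CPM in D7 organoids. *Ctsl* was 10.8-fold higher in fresh TECs (log2 fold change 3.44, standard error 0.17, adjusted p = 5.1e-11). Both proteases were among the 10 most abundant protein-coding genes of fresh TECs and their groups did not overlap. *Ccl25*, a chemokine that draws T-cell progenitors, had 763 and 682 CPM in fresh TECs and 82.4 and 67.6 CPM in D7 organoids. *Ccl25* was 9.61-fold higher in fresh TECs (log2 fold change 3.26, standard error 0.20, adjusted p = 9.4e-10). *Tbata*, a thymus- and testis-expressed gene, had 690.0 and 547 CPM in fresh TECs and 47.4 and 50 CPM in D7 organoids. *Tbata* was 12.7-fold higher in fresh TECs (log2 fold change 3.67, standard error 0.19, adjusted p = 1.3e-10). In D3 organoids both genes were lower still, at 5.07 and 2.38 CPM for *Ccl25* and 0.677 and 0.140 CPM for *Tbata*.

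The size of the difference varied within the list. *Cd83*, which stabilizes MHC class II on the cell surface, showed the largest fold of the 17, with 136 and 152 CPM in fresh TECs and 2.71 and 3.52 CPM in D7 organoids. *Cd83* was 47-fold higher in fresh TECs (log2 fold change 5.55, standard error 0.30, adjusted p = 1.6e-10). *Psmb11*, the subunit that defines the thymoproteasome, had 514 and 548 CPM in fresh TECs and 106 and 111 CPM in D7 organoids. *Psmb11* was 4.90-fold higher in fresh TECs (log2 fold change 2.29, standard error 0.16, adjusted p = 3.8e-09). The smallest difference among the genes called was that of *Il7*, the cytokine that thymocytes need to survive, with 326 and 337 CPM in fresh TECs and 193 and 145 CPM in D7 organoids. *Il7* was 1.96-fold higher in fresh TECs (log2 fold change 0.97, standard error 0.16, adjusted p = 0.00015). *Kitl*, encoding stem cell factor, had 175 and 178 CPM in fresh TECs and 200.5 and 183 CPM in D7 organoids and did not pass the test, with a 95% interval of the log2 fold change from -0.44 to 0.20. *Ackr4*, a scavenger receptor for chemokines, had 144 and 167 CPM in fresh TECs and 124 and 111 CPM in D7 organoids, with an interval from -0.07 to 0.88. *Foxn1* itself had 220.3 and 270.4 CPM in fresh TECs and 60.2 and 84.2 CPM in D7 organoids. *Foxn1* was 3.41-fold higher in fresh TECs (log2 fold change 1.77, standard error 0.21, adjusted p = 3.1e-06).

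**Figure D2:**
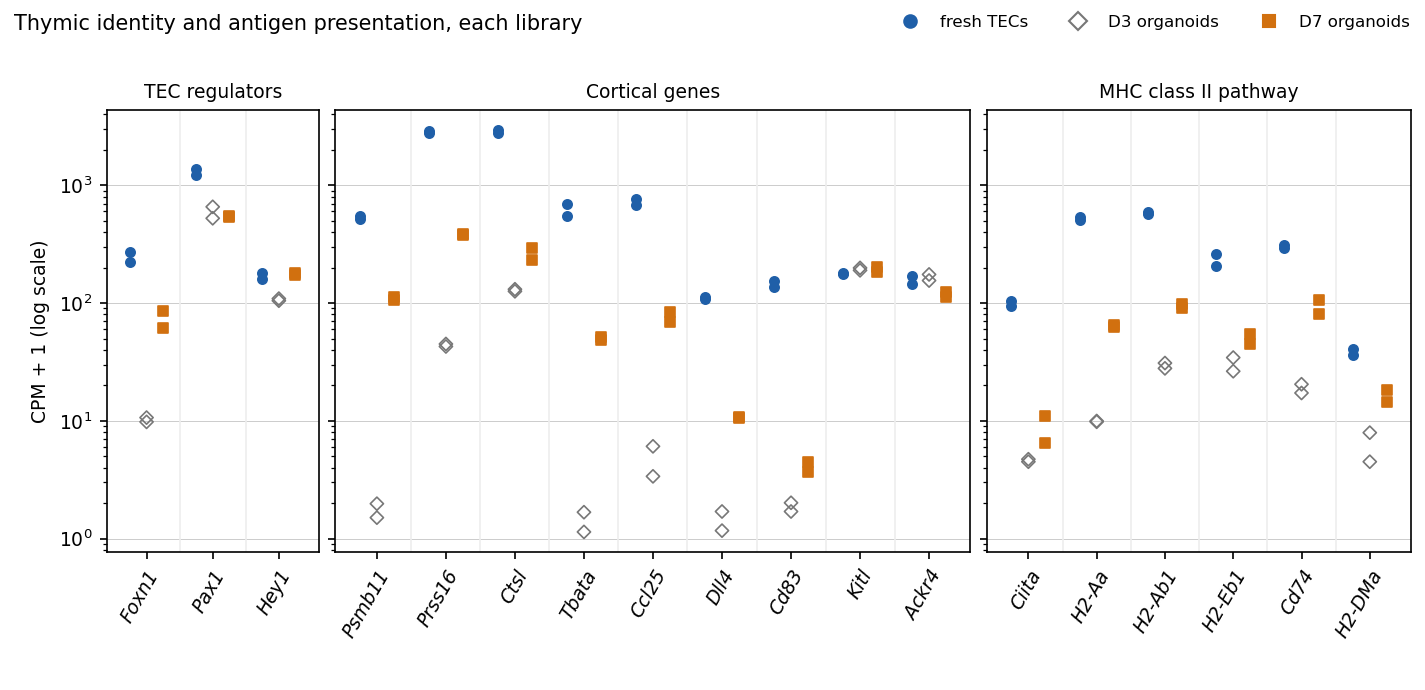
CPM + 1 on a log scale in each of 2 libraries of fresh TECs (circles), D3 organoids (open diamonds) and D7 organoids (squares) for TEC regulators, cortical genes and MHC class II pathway genes. *Ctsl* and *Prss16* lie between 2751 and 2917 CPM in fresh TECs and between 229 and 384 CPM in D7 organoids, whereas the libraries of both groups lie close together for *Kitl* and *Hey1*.

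The core of the FOXN1 motif, GACGC, was looked for on both strands in the 300-base RefSeq promoter windows, from 250 bases before to 50 bases after the start. Of the 17 cortical genes 14 had a window, and 5 of these (35.7%) held the letters, against 46.2% of the 10513 windows of genes tested and 27.4% of all 27025 windows. The share in the cortical list was thus below that of the genes tested. The 250 bases before the start of *Psmb11* and *Ccl25* are shown because these cortical genes hold the letters upstream. Capitals mark GACGC or its reverse complement GCGTC, and coordinates come from a unique match of the RefSeq bases to GRCm39. A match is a description of the letters only.
Psmb11, chr14:54862517-54862766, plus strand: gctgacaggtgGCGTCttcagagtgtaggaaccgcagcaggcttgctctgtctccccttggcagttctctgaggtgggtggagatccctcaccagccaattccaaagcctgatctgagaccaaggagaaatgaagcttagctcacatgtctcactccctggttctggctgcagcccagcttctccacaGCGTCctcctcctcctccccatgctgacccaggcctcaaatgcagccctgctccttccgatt
Ccl25, chr8:4374960-4375209, plus strand: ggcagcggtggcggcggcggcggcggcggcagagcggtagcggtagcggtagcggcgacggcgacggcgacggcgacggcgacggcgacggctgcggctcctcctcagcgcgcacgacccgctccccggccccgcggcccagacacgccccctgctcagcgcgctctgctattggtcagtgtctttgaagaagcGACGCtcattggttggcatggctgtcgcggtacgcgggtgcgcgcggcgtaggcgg

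Regulators of the pharyngeal endoderm and thymus differed in both directions. Of 15 tested, 5 (33.3%) were higher in fresh TECs and 7 (46.7%) in D7 organoids, with 3 past neither side. The count of 5 was 3 without fresh replicate 2 and 3 without D7 replicate 2. *Pax1*, a regulator of the third pharyngeal pouch, had 1224 and 1376 CPM in fresh TECs and 534 and 546 CPM in D7 organoids. *Pax1* was 2.41-fold higher in fresh TECs (log2 fold change 1.27, standard error 0.15, adjusted p = 3.8e-06). *Sox9* had 188 and 179 CPM in fresh TECs and 682 and 616 CPM in D7 organoids. *Sox9* was 3.54-fold higher in organoids (log2 fold change -1.82, standard error 0.14, adjusted p = 2.3e-08). The patterning gene *Hoxa3* (26 and 30.5 CPM in fresh TECs and 34.1 and 27.3 CPM in D7 organoids) overlapped between the groups and did not pass the test. *Sox2*, a regulator of foregut and airway epithelium, was low in fresh TECs at 2.22 and 0.417 CPM and had 12.6 and 26 CPM in D7 organoids (log2 fold change -3.89, adjusted p = 0.00024, -3.26 without D7 replicate 2, -5.45 without fresh replicate 1, -3.10 without fresh replicate 2).

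Of 17 medullary TEC genes, 12 (70.6%, against 18.8% of all genes tested) were higher in fresh TECs, 3 (17.6%, against 18.6%) were higher in D7 organoids and 2 did not pass the test, with a median log2 fold change of 2.00. *Krt5*, a keratin of medullary and basal cells, had 263 and 247 CPM in fresh TECs and 71.9 and 66.2 CPM in D7 organoids, or 3.68-fold (log2 fold change 1.88, standard error 0.18, adjusted p = 1.8e-07), although D3 organoids still had 284 and 202 CPM. *Krt17* had 129 and 176 CPM in fresh TECs and 6.65 and 14.6 CPM in D7 organoids, or 14.9-fold (log2 fold change 3.90, standard error 0.26, adjusted p = 3e-09), and a log2 fold change of 4.52 (adjusted p = 1.3e-10) without D7 replicate 2. The next 3 genes of the list were chosen after their values were seen. *Aire*, a regulator of tissue-restricted self antigens, had 30 and 72 counts in fresh TECs and 1 and 0 in D7 organoids, with an adjusted p of 0.00078 (edgeR), and 0.0011 to 0.017 with 1 library left out. *Fezf2*, another such transcription factor, had 38 and 88 counts in fresh TECs and 0 and 0 in D7 organoids, with an adjusted p of 0.00022 (edgeR), and 0.00036 to 0.0039 with 1 library left out. *Cd40*, a receptor of the TNF family, had 21.9 and 23.6 CPM in fresh TECs and 3.20 and 3.13 CPM in D7 organoids (log2 fold change 2.84, standard error 0.47, adjusted p = 0.00012). By contrast, the claudin genes *Cldn3* and *Cldn4*, which are counted among medullary markers but are common to many epithelia, were higher in organoids. *Cldn3* had 4.79 and 3.75 CPM in fresh TECs and 38.4 and 33.6 CPM in D7 organoids, or 8.49-fold (log2 fold change -3.09, standard error 0.22, adjusted p = 6e-09), and *Cldn4* had 9.76 and 10.7 CPM in fresh TECs and 55.3 and 65 CPM in D7 organoids. *Cldn4* was 5.84-fold higher in organoids (log2 fold change -2.55, standard error 0.18, adjusted p = 4.9e-09). Within the pathway of TNF family receptors and noncanonical NF-kB, which medullary growth depends on, 9 of 16 genes (56.2%) were higher in fresh TECs. Another 3 (18.8%, near the 18.6% of all genes tested) were higher in D7 organoids. *Map3k14*, encoding the kinase NIK at its head, had 55.3 and 55.1 CPM in fresh TECs and 13.9 and 15.6 CPM in D7 organoids. *Map3k14* was 3.74-fold higher in fresh TECs (log2 fold change 1.90, standard error 0.28, adjusted p = 3.3e-05). *Ltbr*, the lymphotoxin receptor, had 77.5 and 96.8 CPM in fresh TECs and 141 and 160.0 CPM in D7 organoids. *Ltbr* was 1.72-fold higher in organoids (log2 fold change -0.78, standard error 0.16, adjusted p = 0.0011).

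Genes of presentation on MHC class II were lower in D7 organoids. Of 14 genes of the class II pathway, 10 (71.4%, against 18.8% of all genes tested) were higher in fresh TECs and 0 in D7 organoids (median log2 fold change 1.99). *Ciita*, the transactivator of class II genes, had 103 and 92.9 CPM in fresh TECs and 5.54 and 9.96 CPM in D7 organoids. *Ciita* was 13-fold higher in fresh TECs (log2 fold change 3.70, standard error 0.30, adjusted p = 3.4e-08). *H2-Aa* had 532 and 507 CPM in fresh TECs and 62.1 and 63.9 CPM in D7 organoids. *H2-Aa* was 8.25-fold higher in fresh TECs (log2 fold change 3.04, standard error 0.18, adjusted p = 6.7e-10). *Cd74*, the invariant chain, had 292 and 309 CPM in fresh TECs and 79.4 and 105 CPM in D7 organoids. *Cd74* was 3.27-fold higher in fresh TECs (log2 fold change 1.71, standard error 0.19, adjusted p = 1.8e-06). The groups of these 3 genes did not overlap. *H2-DMb2* had 137 and 128 counts in fresh TECs and 0 and 3 in D7 organoids, an observed ratio of 89.7 (95% counting interval 30.4 to 438), with a fitted log2 fold change of 5.09 to 10.05 when either library of the low group was left out. Subunits of the DNA-bound complex on which the transactivator docks, *Rfx5* (36.3 and 36.4 CPM in fresh TECs and 30 and 33.4 CPM in D7 organoids) and *Rfxap* (24.8 and 33.2 CPM in fresh TECs and 30 and 22.3 CPM in D7 organoids), did not pass the test. Neither did *Rfxank*, of the same complex.

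Of 15 class I pathway genes, 10 were higher in fresh TECs and 2 in D7 organoids, the latter 1 without fresh replicate 1 and without either D7 replicate. The 10 and 2 genes were 66.7% and 13.3% of the list, against 18.8% and 18.6% of all genes tested. *B2m*, the light chain of class I molecules, had 518 and 435 CPM in fresh TECs and 97.7 and 85.2 CPM in D7 organoids. *B2m* was 5.20-fold higher in fresh TECs (log2 fold change 2.38, standard error 0.16, adjusted p = 3.1e-09). *Psmb10*, a subunit of the immunoproteasome, had 288 and 308 CPM in fresh TECs and 57.3 and 62.1 CPM in D7 organoids. *Psmb10* was 5.0-fold higher in fresh TECs (log2 fold change 2.32, standard error 0.18, adjusted p = 1.3e-08). *H2-K1* had 189.8 and 156 CPM in fresh TECs and 59.1 and 56.3 CPM in D7 organoids. *H2-K1* was 2.99-fold higher in fresh TECs (log2 fold change 1.58, standard error 0.18, adjusted p = 2.3e-06). *Calr* (515 and 580.1 CPM in fresh TECs and 644 and 644 CPM in D7 organoids) and *Canx* (336 and 283 CPM in fresh TECs and 381 and 398 CPM in D7 organoids), chaperones of the endoplasmic reticulum that serve many proteins, did not pass the test. *Psme1*, an activator of the proteasome, was higher in organoids, with 50.3 and 32.1 CPM in fresh TECs and 74 and 92.4 CPM in D7 organoids. *Psme1* was 2.02-fold higher in organoids (log2 fold change -1.02, standard error 0.22, adjusted p = 0.0012). Lysosomal proteases and 2 of their inhibitors divided evenly, with 6 of 15 (40%) higher in each group. Besides the protease *Ctsl*, the inhibitor *Cstb* had 1316 and 1230.2 CPM in fresh TECs and 184 and 95.1 CPM in D7 organoids. *Cstb* was 9.09-fold higher in fresh TECs (log2 fold change 3.18, standard error 0.23, adjusted p = 6.6e-09). The other inhibitor, *Cst3*, had 109 and 103 CPM in fresh TECs and 175 and 125 CPM in D7 organoids. *Cst3* was 1.42-fold higher in organoids (log2 fold change -0.51, standard error 0.17, adjusted p = 0.026), a call that was lost when any of 3 libraries was left out (log2 fold change -0.24 without D7 replicate 1 at an adjusted p of 0.41, -0.55 without fresh replicate 1 at an adjusted p of 0.07, -0.47 without fresh replicate 2 at an adjusted p of 0.096). The protease *Ctsd* had 32.3 and 48.4 CPM in fresh TECs and 156 and 181 CPM in D7 organoids. *Ctsd* was 4.16-fold higher in organoids (log2 fold change -2.06, standard error 0.19, adjusted p = 1.5e-07).

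Interferon-stimulated genes were lower in D7 organoids. Of 31 tested, 25 (80.6%) were higher in fresh TECs, 0 were higher in D7 organoids and 6 did not pass the test, with a median log2 fold change of 2.50. Their summed level was 1566 and 1609 CPM in fresh TECs and 378 and 402 CPM in D7 organoids. *Cxcl10*, an interferon-induced chemokine, had 145 and 138 CPM in fresh TECs and 0.862 and 0.586 CPM in D7 organoids. *Cxcl10* was 183-fold higher in fresh TECs (log2 fold change 7.52, standard error 0.32, adjusted p = 8.3e-12). *Irf1* had 181 and 159.6 CPM in fresh TECs and 44.1 and 45.3 CPM in D7 organoids. *Irf1* was 3.81-fold higher in fresh TECs (log2 fold change 1.93, standard error 0.19, adjusted p = 2.6e-07). *Stat2*, a transcription factor of the response, had 18.8 and 23.8 CPM in fresh TECs and 19.7 and 15.8 CPM in D7 organoids and did not pass the test, and neither did *Ifih1* (53.6 and 61.7 CPM in fresh TECs and 45.3 and 44.7 CPM in D7 organoids) or *Trim25* (64.2 and 62.8 CPM in fresh TECs and 46.3 and 49.2 CPM in D7 organoids). Over the 25 genes, the median ratio of fresh replicate 1 to 2 was 1.02 (range 0.410 to 1.52), beside 1.09 over all genes higher in fresh TECs and 2.52 over the thymocyte markers, and the part of the thymocytes in this list was not tested.

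The letters GAAANNGAA, a part of the interferon-stimulated response element, were found on either strand in 15 of the 22 promoter windows that could be matched to these genes (68.2%), against 6.92% of the windows of genes tested and 8.57% of all windows. *Cxcl10* had the largest fold of the 31 genes, and the 250 bases before its start are printed with the letters in capitals. The named genes *Irf1* and *Oasl2* held no match in the 250 bases before the start.
Cxcl10, chr5:92496749-92496998, minus strand: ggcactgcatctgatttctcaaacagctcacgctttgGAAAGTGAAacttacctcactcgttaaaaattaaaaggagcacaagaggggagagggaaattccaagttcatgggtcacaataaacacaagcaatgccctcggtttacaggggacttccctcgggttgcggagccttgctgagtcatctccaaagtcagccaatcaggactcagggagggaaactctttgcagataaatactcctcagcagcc

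Immediate early genes, which rise within minutes of a stimulus, were high in fresh TECs. Of 29 immediate early and stress genes, 21 (72.4%) were higher in fresh TECs and 1 (3.45%), *Cebpb*, in D7 organoids, and the median log2 fold change was 2.69. Their summed level was 3705 and 3427 CPM in fresh TECs and 469.7 and 436 CPM in D7 organoids, and 487 and 383 CPM in D3 organoids. *Fos* had 379 and 361 CPM in fresh TECs and 2.71 and 4.30 CPM in D7 organoids. *Fos* was 109-fold higher in fresh TECs (log2 fold change 6.77, standard error 0.30, adjusted p = 1.5e-11). *Egr1* had 669.7 and 638 CPM in fresh TECs and 38.8 and 38.1 CPM in D7 organoids, or 17-fold (log2 fold change 4.09, standard error 0.24, adjusted p = 3.8e-10), and *Junb* had 436 and 358 CPM in fresh TECs and 15.5 and 12.5 CPM in D7 organoids. *Junb* was 28-fold higher in fresh TECs (log2 fold change 4.81, standard error 0.20, adjusted p = 7.5e-12). *Fosb* had 604 and 1004 counts in fresh TECs and 0 and 2 in D7 organoids, an observed ratio of 817 (95% counting interval 226 to 6749), with a fitted log2 fold change of 8.21 to 12.61 when either library of the low group was left out. Not every gene of the class moved, since *Ier5* (50.1 and 52 CPM in fresh TECs and 56.2 and 44.3 CPM in D7 organoids) and *Nr4a2* (42.6 and 31.8 CPM in fresh TECs and 42.2 and 34 CPM in D7 organoids) overlapped between the groups. Fresh cells alone had been digested and sorted just before lysis, and the 2D TECs, lysed on the plate, had a summed level of 2020.2 and 1908 CPM. The part of digestion in these values was not tested. Heat shock chaperones were higher in fresh TECs for 42.1% of their list and in D7 organoids for 21.1%, against 18.8% and 18.6% of all genes tested. Of 19 heat shock chaperones, 8 were higher in fresh TECs (5 without fresh replicate 1) and 4 in D7 organoids, and the most abundant, *Hsp90ab1*, had 4002 and 3891 CPM in fresh TECs and 3999.9 and 4417 CPM in D7 organoids.

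**Figure D3:**
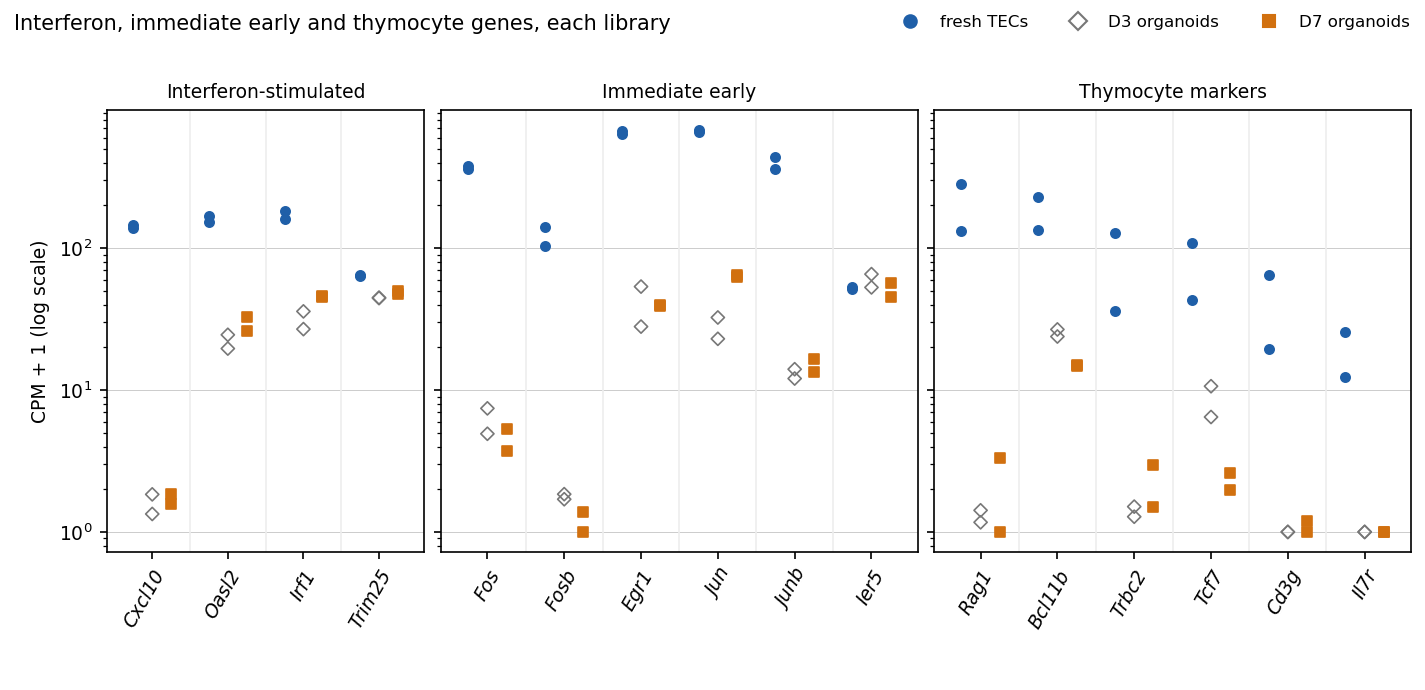
CPM + 1 on a log scale in each library for interferon-stimulated genes, immediate early genes and thymocyte markers, with symbols for fresh TECs (circles), D3 organoids (open diamonds) and D7 organoids (squares). *Cxcl10* and *Fos* are level between the fresh replicates, at 145 and 138 CPM and 379 and 361 CPM, whereas *Rag1* has 282 and 131 CPM there.

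All 15 thymocyte markers tested (100%, against 18.8% of all genes tested) were higher in fresh TECs, with a median log2 fold change of 7.34. Several, such as *Il7r* and *Cd3g* with 0 or 1 count in each D7 library, passed the filter only through the fresh libraries. Their direction was thus fixed by the filter, and the share is a description only. *Rag1*, part of the recombinase of antigen receptors, had 282 and 131 CPM in fresh TECs and 0 and 2.34 CPM in D7 organoids. *Bcl11b*, a regulator of T-cell commitment, had 13.9 and 13.7 CPM in D7 organoids against 229.7 and 133 CPM in fresh TECs. *Bcl11b* was 13.1-fold higher in fresh TECs (log2 fold change 3.71, standard error 0.25, adjusted p = 2.6e-09). There were 43 genes with at least 10 CPM in both fresh libraries and 3 counts or fewer in each D7 library. Several of them are genes of lymphocytes, such as *Trgc2*, *Trgv2* and *Gzma*, and in these replicate 1 exceeded replicate 2 as in the marker list. *Trgc2*, a constant segment of the gamma T-cell receptor whose last 500 bases share 33.3% of their 50-base words with other gamma segments, had 57.8 and 24.6 CPM in fresh TECs and 0 counts in D7 organoids, at least 174-fold higher against a floor of 3 counts over the group, which like the counting intervals covers counting error only. Its fitted log2 fold change was 11.01, 10.28 without fresh replicate 1. In other genes at the floor the fresh replicates lay closer together. *Umodl1* had 73.1 and 63.7 CPM in fresh TECs and 0 counts in every D7 and D3 library, at least 299.6-fold higher, though it overlaps annotated genes on both strands. *Stmn2*, which encodes a microtubule-binding protein of neurons, had 78.9 and 104 CPM and 2 and 2 counts in the D7 libraries, a ratio of 306 (95% counting interval 119 to 1127), and *Stat4* had 53.2 and 58.7 CPM and 2 and 0 counts, a ratio of 372 (95% counting interval 103 to 3080), with a fitted log2 fold change of 7.72 to 11.39 when either library of the low group was left out. *Pth*, the parathyroid hormone gene, had 67.4 and 48.7 CPM in fresh TECs and 5.30 and 1.56 CPM in D7 organoids (log2 fold change 3.98, adjusted p = 4.4e-07, 5.20 without D7 replicate 1).

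Signalling pathways differed in which side their members took. In the Notch pathway, 7 of 17 genes were higher in fresh TECs and 4 in D7 organoids, the latter 2 without either D7 replicate. The 7 and 4 genes were 41.2% and 23.5% of the list, against 18.8% and 18.6% of all genes tested. Over the 7 genes, the median ratio of fresh replicate 1 to 2 was 1.04 (range 0.871 to 1.78). The part of the thymocytes in this list was not tested. The ligand *Dll4*, needed for T-lineage commitment, had 112 and 108 CPM in fresh TECs and 9.73 and 9.57 CPM in D7 organoids. *Dll4* was 11.4-fold higher in fresh TECs (log2 fold change 3.51, standard error 0.28, adjusted p = 2e-08). The receptor *Notch1* had 122 and 99.3 CPM in fresh TECs and 201 and 261 CPM in D7 organoids. *Notch1* was 2.09-fold higher in organoids (log2 fold change -1.07, standard error 0.18, adjusted p = 0.00017). Of the targets, *Hes1* had 631 and 430.3 CPM in fresh TECs and 88.7 and 54.5 CPM in D7 organoids, or 7.36-fold (log2 fold change 2.88, standard error 0.22, adjusted p = 1.7e-08), while *Hey1* had 179.5 and 159.8 CPM in fresh TECs and 178 and 171 CPM in D7 organoids, with overlapping groups. In the Wnt pathway, 12 of 22 genes were higher in fresh TECs (7 without D7 replicate 2) and 6 in D7 organoids. The 12 and 6 genes were 54.5% and 27.3% of the list. Over the 12 genes, the ratio of fresh replicate 1 to 2 had a median of 0.956 (range 0.49 to 3.38), and the part of the thymocytes was not tested here either. *Wnt4*, which acts upstream of *Foxn1*, had 213 and 214 CPM in fresh TECs and 119 and 104 CPM in D7 organoids. *Wnt4* was 1.91-fold higher in fresh TECs (log2 fold change 0.93, standard error 0.16, adjusted p = 0.00019). *Kremen2*, a receptor that dampens Wnt signals, had 75.8 and 69.8 CPM in fresh TECs and 5.30 and 5.86 CPM in D7 organoids. *Kremen2* was 13.1-fold higher in fresh TECs (log2 fold change 3.71, standard error 0.28, adjusted p = 1.9e-08). *Lgr5* and *Wnt7b* were on the organoid side, at 0.685 and 1.11 CPM in fresh TECs and 10.5 and 9.18 CPM in D7 organoids for *Lgr5* (log2 fold change -3.40, standard error 0.42, adjusted p = 6e-06) and 1.54 and 1.53 CPM in fresh TECs and 10.8 and 12.1 CPM in D7 organoids for *Wnt7b* (log2 fold change -2.88, standard error 0.32, adjusted p = 1.5e-06).

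Genes of FGF reception and feedback were the signalling list with the most members higher in organoids. Of 17 tested, 13 (76.5%) were higher in D7 organoids and 1 (5.88%) in fresh TECs, with a median log2 fold change of -2.30. The exception was *Fgfr2*, which encodes the receptor for FGF7, with 216 and 191 CPM in fresh TECs and 56.9 and 38.1 CPM in D7 organoids, or 4.25-fold (log2 fold change 2.09, standard error 0.19, adjusted p = 1.8e-07), and 178 and 168 CPM in D3 organoids. Without fresh replicate 2, the count higher in fresh TECs was 2. The summed level of the list was 519.6 and 489 CPM in fresh TECs and 1133 and 933 CPM in D7 organoids, 1891 and 1737 CPM in D3 organoids and 580.0 and 512 CPM in the 2D monolayer, so the 2D libraries were near fresh TECs and below both organoid stages. The 2D cells too were kept in the medium holding FGF7. *Etv5*, a transcriptional target of FGF signals, had 18.3 and 24.5 CPM in fresh TECs and 96.3 and 116 CPM in D7 organoids. *Etv5* was 4.94-fold higher in organoids (log2 fold change -2.30, standard error 0.20, adjusted p = 8.6e-08). The inhibitor *Spry2* had 60.1 and 48.4 CPM in fresh TECs and 132 and 103 CPM in D7 organoids. *Spry2* was 2.18-fold higher in organoids (log2 fold change -1.12, standard error 0.19, adjusted p = 0.0002). *Fgf1*, itself a ligand, had 2.57 and 1.81 CPM in fresh TECs and 172 and 187 CPM in D7 organoids. *Fgf1* was 82.4-fold higher in organoids (log2 fold change -6.37, standard error 0.24, adjusted p = 2.9e-12). *Dusp6*, a phosphatase of the same feedback, overlapped between the groups with 88.3 and 90 CPM in fresh TECs and 185 and 70.9 CPM in D7 organoids.

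In the BMP and TGF-beta pathway, 12 of 25 genes were higher in D7 organoids (7 without D7 replicate 1) and 4 in fresh TECs. *Id2*, *Id3* and *Id4*, targets of BMP signals, were among the former. The 12 and 4 genes were 48% and 16% of the list, against 18.6% and 18.8% of all genes tested. The summed level was 568 and 603 CPM in fresh TECs, 1982 and 1824 CPM in D7 organoids and 2786 and 2879 CPM in the 2D monolayer. *Id2* had 54.6 and 52.3 CPM in fresh TECs and 963 and 966 CPM in D7 organoids with 355 and 371 CPM in D3 organoids, and differed from fresh TECs by 18.1-fold (log2 fold change -4.17, standard error 0.17, adjusted p = 6.3e-12). *Id4* had 30.3 and 29.1 CPM in fresh TECs and 125 and 120.1 CPM in D7 organoids. *Id4* was 4.13-fold higher in organoids (log2 fold change -2.05, standard error 0.19, adjusted p = 2e-07). The receptor *Tgfbr2* had 41.1 and 36.4 CPM in fresh TECs and 14.8 and 11.1 CPM in D7 organoids and was higher in fresh TECs by 2.95-fold (log2 fold change 1.56, standard error 0.25, adjusted p = 8.9e-05), and *Bmp2* had 44 and 84 counts in fresh TECs and 1 and 1 in D7 organoids, a ratio of 65 (95% counting interval 17.6 to 543). *Il33*, an alarmin of barrier epithelia, was the cytokine gene that differed most toward organoids, with 1.54 and 2.92 CPM in fresh TECs and 165 and 141 CPM in D7 organoids. *Il33* was 66.3-fold higher in organoids (log2 fold change -6.05, standard error 0.26, adjusted p = 8.3e-12).

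Secretory genes known from airway epithelium were the list furthest toward the organoids. Of 26 tested, 24 (92.3%, against 18.6% of all genes tested) were higher in D7 organoids and 0 in fresh TECs, with a median log2 fold change of -4.35. This list was written with earlier results of these data known, so its share is not independent support. Several members, such as *Muc4*, *Muc20* and *Muc5b*, passed the filter only through the D7 libraries, which fixed their direction. The summed level was 418 and 482 CPM in fresh TECs and 4707 and 5916 CPM in D7 organoids. It was 1778 and 1998 CPM in D3 organoids and 4141 and 4241 CPM in the 2D monolayer, so a high level was not particular to organoids. *Wfdc2*, a secreted protease inhibitor, had 59.2 and 59.1 CPM in fresh TECs and 1804 and 2081 CPM in D7 organoids, or 32.8-fold (log2 fold change -5.04, standard error 0.18, adjusted p = 1.5e-12), and was among the 10 most abundant protein-coding genes of organoids. *Bpifa1*, an antimicrobial protein of the airway surface, had 239 and 254 CPM in fresh TECs and 1937 and 1701 CPM in D7 organoids. *Bpifa1* was 7.38-fold higher in organoids (log2 fold change -2.88, standard error 0.17, adjusted p = 3.5e-10). The transcription factor *Ehf* had 17.1 and 14.5 CPM in fresh TECs and 138 and 152 CPM in D7 organoids. *Ehf* was 9.19-fold higher in organoids (log2 fold change -3.20, standard error 0.26, adjusted p = 3.3e-08). For these 3 genes both D7 libraries lay above both fresh libraries. Without D7 replicate 2, 16 genes of the list were higher in organoids.

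*Cyp2f2*, an oxidase of club cells, had 5.31 and 11.5 CPM in fresh TECs and 227 and 292 CPM in D7 organoids (log2 fold change -4.91, adjusted p = 1.2e-09, -5.61 without fresh replicate 2). *Scgb3a1*, a secretoglobin, had 1.03 and 2.09 CPM in fresh TECs and 124 and 426 CPM in D7 organoids (log2 fold change -7.40, adjusted p = 1.1e-08, -8.04 without D7 replicate 1, -6.26 without D7 replicate 2, -8.04 without fresh replicate 2). *Scgb3a2* had 0 and 7.51 CPM in fresh TECs and 0.862 and 399.8 CPM in D7 organoids, so that D7 replicate 2 alone was high and the groups overlapped (log2 fold change -5.62, adjusted p = 0.0035, -6.63 without D7 replicate 1, 2.11 without D7 replicate 2 at an adjusted p of 0.47, -4.72 without fresh replicate 1, -13.26 without fresh replicate 2). The antimicrobial lectin *Reg3g* had 3.77 and 1.53 CPM in fresh TECs and 40.6 and 240.0 CPM in D7 organoids (log2 fold change -5.75, adjusted p = 1.9e-06, -6.54 without D7 replicate 1, -3.96 without D7 replicate 2, -6.49 without fresh replicate 1). Of the 26 genes, 22 were higher in D7 replicate 2 than in replicate 1, and 7 of them by over 3-fold, among them *Ltf*, encoding lactoferrin, with 8.50 and 28.7 CPM in D7 organoids. *Sftpd*, a surfactant protein, had 0 and 1.53 CPM in fresh TECs and 4.80 and 39.6 CPM in D7 organoids, with a log2 fold change of -4.71 (adjusted p = 0.00073, -5.57 without D7 replicate 1, -2.57 without D7 replicate 2 at an adjusted p of 0.18, -3.82 without fresh replicate 1, -10.07 without fresh replicate 2). The mucin *Muc5b* had only 0 and 2 counts in fresh TECs and 23 and 26 in D7 organoids, with a log2 fold change of -4.54 (adjusted p = 0.015, -4.08 without D7 replicate 2 at an adjusted p of 0.12, -3.72 without fresh replicate 1 at an adjusted p of 0.086, -7.60 without fresh replicate 2). The list's 2 genes that did not pass the test were *Krt7* (33.9 and 22.9 CPM in fresh TECs and 32.5 and 52 CPM in D7 organoids) and *Muc16* (0 and 1.67 CPM in fresh TECs and 1.35 and 1.56 CPM in D7 organoids). Members under the filter were not tested. Of these, *Bpifb1* had 0 and 60 counts in D7 organoids, *Scgb1a1* 0 and 17, and *Tff2* 5 and 9. In fresh TECs they had 2 and 0, 0 and 1, and 0 and 0 counts.

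**Figure D4:**
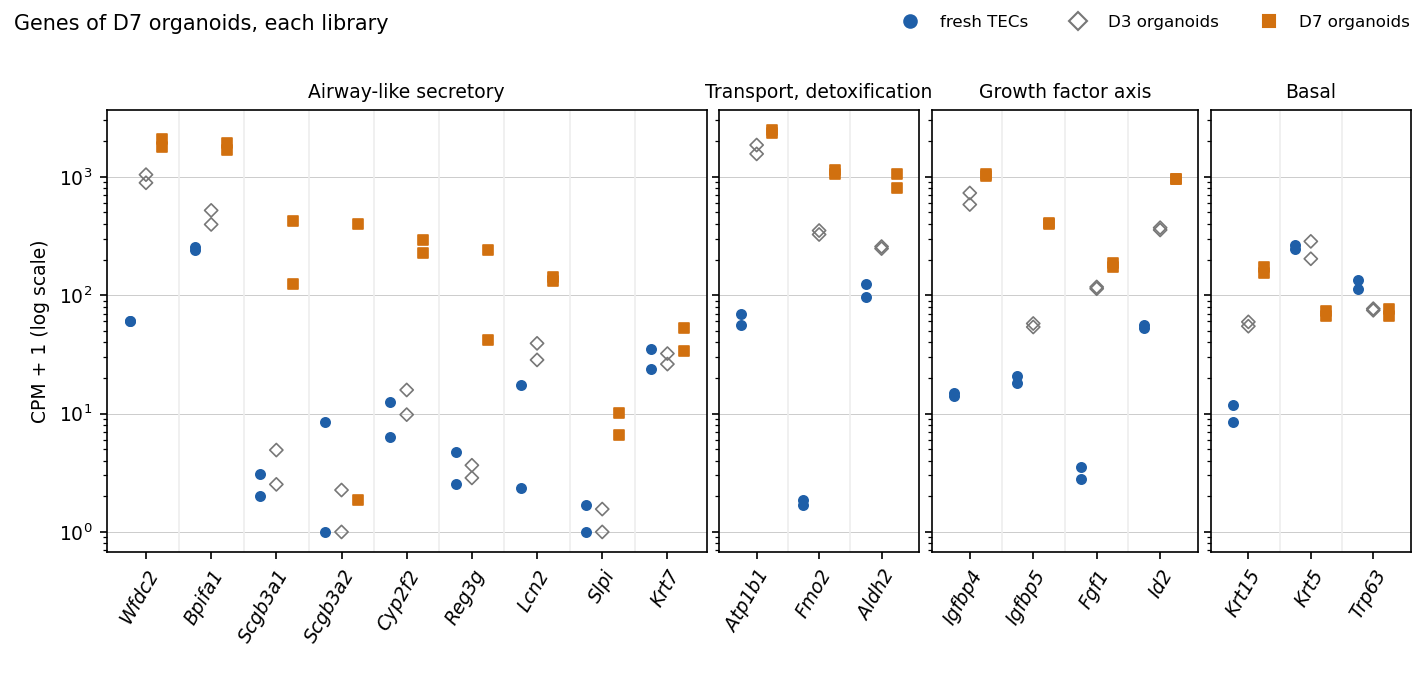
CPM + 1 on a log scale in each library of fresh TECs (circles), D3 organoids (open diamonds) and D7 organoids (squares) for genes of secretion, transport and detoxification, growth factor signals and basal cells. *Wfdc2*, *Atp1b1*, *Fmo2* and *Igfbp4* lie above 1000 CPM in both D7 libraries, while the D7 libraries stand apart from each other for *Scgb3a2* (0.862 and 399.8 CPM) and *Reg3g* (40.6 and 240.0 CPM), and *Krt5* and *Trp63* lie higher in fresh TECs.

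Of 19 genes of ion and water transport, 13 (68.4%) were higher in D7 organoids and 2 (10.5%) in fresh TECs, with a median log2 fold change of -2.02. *Atp1b1*, a subunit of the sodium pump, had 68.6 and 55.3 CPM in fresh TECs and 2465 and 2351 CPM in D7 organoids. *Atp1b1* was 38.9-fold higher in organoids (log2 fold change -5.28, standard error 0.18, adjusted p = 1.5e-12). *Slc12a2*, a chloride importer of secretory epithelia, had 56.1 and 64 CPM in fresh TECs and 261 and 261 CPM in D7 organoids, or 4.34-fold (log2 fold change -2.12, standard error 0.17, adjusted p = 2.1e-08), with 55.5 and 63.7 CPM in D3 organoids. The potassium channel *Kcnk1* had 8.21 and 7.37 CPM in fresh TECs and 154 and 173 CPM in D7 organoids. *Kcnk1* was 21-fold higher in organoids (log2 fold change -4.39, standard error 0.21, adjusted p = 3.8e-11). *Clic5* went the other way with 92.8 and 94.7 CPM in fresh TECs and 30.7 and 31.6 CPM in D7 organoids. *Clic5* was 3.01-fold higher in fresh TECs (log2 fold change 1.59, standard error 0.20, adjusted p = 6.3e-06). The sodium channel subunit *Scnn1a* (25.8 and 17 CPM in fresh TECs and 20.8 and 23.2 CPM in D7 organoids) overlapped between the groups.

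Of 35 antioxidant and detoxification genes, 22 were higher in D7 organoids and 4 in fresh TECs (2 without D7 replicate 2), with a median log2 fold change of -1.53. The 22 and 4 genes were 62.9% and 11.4% of the list. *Fmo2*, a flavin monooxygenase, had 0.856 and 0.695 CPM in fresh TECs and 1142 and 1049 CPM in D7 organoids (log2 fold change -10.44, standard error 0.26, adjusted p = 9.4e-15). *Aldh2*, an aldehyde dehydrogenase, had 95 and 124 CPM in fresh TECs and 811 and 1064 CPM in D7 organoids. *Aldh2* was 8.54-fold higher in organoids (log2 fold change -3.09, standard error 0.18, adjusted p = 5.4e-10). *Nqo1* and *Srxn1* were among the 4 genes higher in fresh TECs, with 307 and 297 CPM in fresh TECs and 81.9 and 81.4 CPM in D7 organoids for *Nqo1*, or 3.69-fold (log2 fold change 1.88, standard error 0.17, adjusted p = 1.6e-07), and 52.9 and 52.4 CPM in fresh TECs and 6.53 and 6.45 CPM in D7 organoids for *Srxn1*. *Srxn1* was 8.09-fold higher in fresh TECs (log2 fold change 3.02, standard error 0.23, adjusted p = 1.3e-08). Of 29 glycolysis and hypoxia genes, 11 (37.9%) were higher in fresh TECs and 4 (13.8%) in organoids, against 18.8% and 18.6% of all genes tested. *Aldoc* had 5.48 and 7.79 CPM in fresh TECs and 148 and 128 CPM in D7 organoids and was higher in organoids by 20.6-fold (log2 fold change -4.36, standard error 0.24, adjusted p = 2.2e-10), whereas *Tpi1* had 118 and 118 CPM in fresh TECs and 52.5 and 51.6 CPM in D7 organoids. *Tpi1* was 2.27-fold higher in fresh TECs (log2 fold change 1.18, standard error 0.16, adjusted p = 1.1e-05).

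Cholesterol synthesis genes were higher in organoids. Of 25 genes, 22 (88%) were higher in D7 organoids and 0 in fresh TECs, with a median log2 fold change of -1.26. The summed level was 781 and 652 CPM in fresh TECs and 1487 and 1541 CPM in D7 organoids, and it stood at a higher value in D3 organoids at 2449.8 and 2355 CPM. In the 2D monolayer it was 1716 and 1577 CPM, so a high level was not particular to organoids. *Hmgcs1*, an early enzyme of the pathway, had 184 and 153 CPM in fresh TECs and 319 and 342 CPM in D7 organoids. *Hmgcs1* was 1.96-fold higher in organoids (log2 fold change -0.97, standard error 0.16, adjusted p = 9.9e-05). *Cyp51* had 45.7 and 44.8 CPM in fresh TECs and 110.1 and 115 CPM in D7 organoids. *Cyp51* was 2.48-fold higher in organoids (log2 fold change -1.31, standard error 0.16, adjusted p = 3.7e-06). In fatty acid synthesis and storage, 12 of 21 genes (57.1%) were higher in organoids and 3 (14.3%) in fresh TECs, with *Acly* (57.8 and 55.3 CPM in fresh TECs and 101 and 104 CPM in D7 organoids, log2 fold change -0.86, standard error 0.16, adjusted p = 0.00033) on the former side. *Fabp5*, a fatty acid carrier that shares 13.5% of its 50-base words near the 3′ end with other genes, had 849 and 829.9 CPM in fresh TECs and 277 and 274 CPM in D7 organoids and was higher in fresh TECs (log2 fold change 1.61, standard error 0.16, adjusted p = 5.2e-07).

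CCAAT, the letters bound by NF-Y, stood on either strand in 15 of the 17 promoter windows matched to the cholesterol genes (88.2%), against 38.6% of the windows of genes tested. They were also frequent in the MHC class II list (70%), which lay toward fresh TECs, and in the G2/M-phase (76.6%) and S-phase (67.7%) lists. In the airway-like secretory list the share was 27.8%. The letters were thus not particular to genes higher in organoids. The 250 bases before the start of *Hmgcs1* held CCAAT or its reverse complement ATTGG 3 times, in capitals here.
Hmgcs1, chr13:120151637-120151886, plus strand: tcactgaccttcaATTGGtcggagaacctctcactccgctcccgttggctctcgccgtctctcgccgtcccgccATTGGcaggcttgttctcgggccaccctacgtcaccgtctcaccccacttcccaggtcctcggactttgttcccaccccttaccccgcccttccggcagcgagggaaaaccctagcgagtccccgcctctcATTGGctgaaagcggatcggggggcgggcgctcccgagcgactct

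Adhesion genes were split. Of 20 tight junction genes, 11 (55%) were higher in D7 organoids and 1 (5%) in fresh TECs. Their summed level was 709 and 740 CPM in fresh TECs, 989 and 1009 CPM in D7 organoids and 3274 and 3386 CPM in the 2D monolayer. *F11r* had 26 and 30.7 CPM in fresh TECs and 99.3 and 114 CPM in D7 organoids. *F11r* was 3.74-fold higher in organoids (log2 fold change -1.90, standard error 0.17, adjusted p = 1.2e-07). Of 19 desmosome and adherens junction genes, 8 were higher in fresh TECs (5 without D7 replicate 2) and 4 in organoids. The 8 and 4 genes were 42.1% and 21.1% of the list, the latter near the 18.6% of all genes tested. *Dsp*, encoding desmoplakin, had 786 and 980.4 CPM in fresh TECs and 250.5 and 327 CPM in D7 organoids, or 3.06-fold (log2 fold change 1.61, standard error 0.19, adjusted p = 2.6e-06), and *Epcam* was higher in organoids by 2.24-fold (log2 fold change -1.16, standard error 0.14, adjusted p = 4.7e-06). Of 26 basement membrane and integrin genes, 7 were higher in fresh TECs (4 without fresh replicate 2 and 3 without D7 replicate 2) and 10 in organoids, and *Itga6*, with 286 and 289.6 CPM in fresh TECs and 299 and 295 CPM in D7 organoids, did not pass the test. The 7 and 10 basement membrane and integrin genes were 26.9% and 38.5% of their list. Of 25 interstitial and matricellular matrix genes, 7 (28%, against 18.8% of all genes tested) were higher in fresh TECs and 6 (24%, against 18.6%) in organoids. *Fn1*, encoding fibronectin, had 657 and 715 CPM in fresh TECs and 26.7 and 27.3 CPM in D7 organoids, or 25.4-fold (log2 fold change 4.67, standard error 0.22, adjusted p = 5.1e-11), and *Tnc*, encoding tenascin C, had 602 and 585 CPM in fresh TECs and 63.1 and 64.5 CPM in D7 organoids. *Tnc* was 9.31-fold higher in fresh TECs (log2 fold change 3.22, standard error 0.16, adjusted p = 5.6e-11). *Sparc* had 96 and 90.1 CPM in fresh TECs and 411 and 454 CPM in D7 organoids. *Sparc* was 4.64-fold higher in organoids (log2 fold change -2.22, standard error 0.15, adjusted p = 2.5e-09). Contractile genes divided evenly, with 6 of 21 (28.6%) higher in each group, against 18.8% and 18.6% of all genes tested. *Actb* had 4868 and 5182 CPM in fresh TECs and 4478 and 5241 CPM in D7 organoids.

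Keratins divided too, with 6 of 20 higher in fresh TECs and 8 in D7 organoids (5 without fresh replicate 2 and without either D7 replicate). The 6 and 8 genes were 30% and 40% of the list, against 18.8% and 18.6% of all genes tested. *Krt8*, a keratin of simple epithelium and of cortical TECs, had 372 and 455 CPM in fresh TECs and 82.1 and 65.2 CPM in D7 organoids. *Krt8* was 5.60-fold higher in fresh TECs (log2 fold change 2.48, standard error 0.17, adjusted p = 4.6e-09). Its partner *Krt18* had 1636 and 1804 CPM in fresh TECs and 481 and 490.0 CPM in D7 organoids. *Krt18* was 3.54-fold higher in fresh TECs (log2 fold change 1.82, standard error 0.14, adjusted p = 2e-08). *Krt15*, a keratin of basal progenitor cells, had 7.53 and 10.8 CPM in fresh TECs and 152 and 171 CPM in D7 organoids. *Krt15* was 17.4-fold higher in organoids (log2 fold change -4.12, standard error 0.23, adjusted p = 3.5e-10). *Krt19* had 4.45 and 9.04 CPM in fresh TECs and 84.2 and 130.3 CPM in D7 organoids, or 15.5-fold (log2 fold change -3.95, standard error 0.29, adjusted p = 6.8e-09), and -4.59 (adjusted p = 3.8e-08) without fresh replicate 2. *Krt14* (19.5 and 22 CPM in fresh TECs and 22.9 and 26.2 CPM in D7 organoids) did not pass the test. *Trp63*, the regulator of stratified and basal epithelium, had 113 and 134 CPM in fresh TECs and 75.7 and 65.8 CPM in D7 organoids. *Trp63* was 1.74-fold higher in fresh TECs (log2 fold change 0.80, standard error 0.17, adjusted p = 0.0013).

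Of 26 imprinted and fetal genes, 14 (53.8%) were higher in fresh TECs and 4 (15.4%) in D7 organoids (median log2 fold change 1.23). This list also holds genes of the insulin-like growth factor (IGF) axis, among them *Igf1r*, *Igfbp4* and *Igfbp5*, which are not given here as imprinted genes. *Igf1r*, the IGF receptor, had 323 and 385 CPM in fresh TECs and 33.6 and 37.9 CPM in D7 organoids. *Igf1r* was 9.94-fold higher in fresh TECs (log2 fold change 3.31, standard error 0.22, adjusted p = 2.4e-09). *Grb10*, which restrains that receptor, had 172 and 193 CPM in fresh TECs and 28.8 and 27.5 CPM in D7 organoids, or 6.47-fold (log2 fold change 2.69, standard error 0.16, adjusted p = 8.5e-10), with 126 and 128 CPM in D3 organoids. *H19*, an imprinted noncoding RNA, had 539 and 308 CPM in fresh TECs and 21.4 and 79.3 CPM in D7 organoids (log2 fold change 3.10, standard error 0.40, adjusted p = 8.2e-06, 2.42 without D7 replicate 1, 4.30 without D7 replicate 2). *Igfbp4* and *Igfbp5* showed the opposite direction, with 13.9 and 13.2 CPM in fresh TECs and 1023 and 1052 CPM in D7 organoids for *Igfbp4*, or 76.6-fold (log2 fold change -6.26, standard error 0.26, adjusted p = 7e-12), and 19.7 and 17.1 CPM in fresh TECs and 408 and 399.6 CPM in D7 organoids for *Igfbp5*. *Igfbp5* was 22-fold higher in organoids (log2 fold change -4.46, standard error 0.18, adjusted p = 6.3e-12). *Cdkn1c*, an imprinted inhibitor of the cell cycle, did not pass the test, at 164 and 169 CPM in fresh TECs and 144 and 116 CPM in D7 organoids and 55.1 and 39.6 CPM in D3 organoids.

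Of 54 G2/M-phase genes, 17 (31.5%) were higher in fresh TECs, 3 (5.56%) were higher in D7 organoids and 34 did not pass the test. The share that differed in either direction was 37%, against 37.3% of all genes tested, and the median log2 fold change was 0.22. The count of 17 became 7 without fresh replicate 1, 11 without D7 replicate 1 and 6 without D7 replicate 2, and the 17 genes had a median ratio of fresh replicate 1 to 2 of 1.21, beside 1.09 over all genes higher in fresh TECs. The part of the thymocytes in this list was not tested. Of 43 S-phase genes, 10 were higher in fresh TECs (5 without fresh replicate 1 and 4 without D7 replicate 2) and 3 in organoids (0 without D7 replicate 2). These were 23.3% and 6.98% of the list, against 18.8% and 18.6% of all genes tested. *Top2a* had 594 and 601 CPM in fresh TECs and 559 and 619.9 CPM in D7 organoids and *Hmgb2* 280.2 and 289 CPM in fresh TECs and 283 and 317 CPM in D7 organoids, with overlapping groups for both. *Mcm6*, a subunit of the replicative helicase, had 146 and 125 CPM in fresh TECs and 85.8 and 73.8 CPM in D7 organoids and was higher in fresh TECs by 1.69-fold (log2 fold change 0.76, standard error 0.17, adjusted p = 0.0021), although D3 organoids had 237 and 229.6 CPM. *Ccnd2* had 944 and 1058 CPM in fresh TECs and 3197 and 3544 CPM in D7 organoids, or 3.37-fold (log2 fold change -1.75, standard error 0.14, adjusted p = 2.9e-08), and *Ccnd1* had 18.1 and 16.8 CPM in fresh TECs and 127 and 110.0 CPM in D7 organoids, or 6.79-fold (log2 fold change -2.76, standard error 0.20, adjusted p = 5.8e-09), both higher in organoids. *Cdk6*, their partner kinase, had 189 and 135 CPM in fresh TECs and 40 and 30.5 CPM in D7 organoids. *Cdk6* was 4.57-fold higher in fresh TECs (log2 fold change 2.19, standard error 0.20, adjusted p = 1.3e-07).

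Of 78 cytosolic ribosomal protein genes, 37 were higher in fresh TECs and 3 in D7 organoids (1 without D7 replicate 2), but the median log2 fold change was 0.29. Of 42 proteasome subunits, 16 were higher in fresh TECs and 5 in organoids (3 without fresh replicate 1 or D7 replicate 2). The 37 and 3 ribosomal protein genes were 47.4% and 3.85% of their list, and the 16 and 5 proteasome subunits 38.1% and 11.9%. Over all genes tested the shares were 18.8% and 18.6%. The constitutive subunit *Psmb1* had 203 and 198 CPM in fresh TECs and 198 and 198 CPM in D7 organoids, in contrast to *Psmb11* and *Psmb10*, and its log2 fold change had an interval from -0.29 to 0.33. Of 8 mitochondrially encoded genes, 5 were higher in fresh TECs (2 without D7 replicate 2). The 5 mitochondrially encoded genes were 62.5% of their list. *mt-Nd1* had 3745 and 3523 CPM in fresh TECs and 2164 and 1719 CPM in D7 organoids. *mt-Nd1* was 1.87-fold higher in fresh TECs (log2 fold change 0.90, standard error 0.15, adjusted p = 0.00015).

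There were 20 genes with at least 10 CPM in both D7 libraries and 3 counts or fewer in each fresh library. *Gria2*, a glutamate receptor subunit, had 277 and 260.2 CPM in D7 organoids and 2 and 0 counts in fresh TECs, a ratio of 1762 (95% counting interval 487 to 14557), with a fitted log2 fold change of -13.73 to -9.54 when either library of the low group was left out, and 302 and 376 CPM in D3 organoids. *Cntn2*, a contactin of neurons, had 0 counts in fresh TECs and 36.2 and 48.6 CPM in D7 organoids, at least 178-fold higher. *Dmp1*, a matrix protein of bone, also had 0 counts in fresh TECs and 40.5 and 35.4 CPM in organoids, at least 167-fold higher. *Lrat*, which stores retinol as esters, had 0 counts in fresh TECs, 3.04 and 7.42 CPM in D3 organoids and 19.9 and 12.5 CPM in D7 organoids, at least 74.2-fold higher than in fresh TECs. *Atp6v1c2*, a subunit of the proton pump, had 0 counts in fresh TECs, 1.01 and 0.840 CPM in D3 organoids and 10.7 and 11.9 CPM in D7 organoids, at least 48.6-fold higher. *Caln1*, a calcium-binding protein, had 2 and 4 counts in fresh TECs and 87.1 and 100.2 CPM in D7 organoids (log2 fold change -7.61, standard error 0.34, adjusted p = 1.7e-11).

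**Figure D5:**
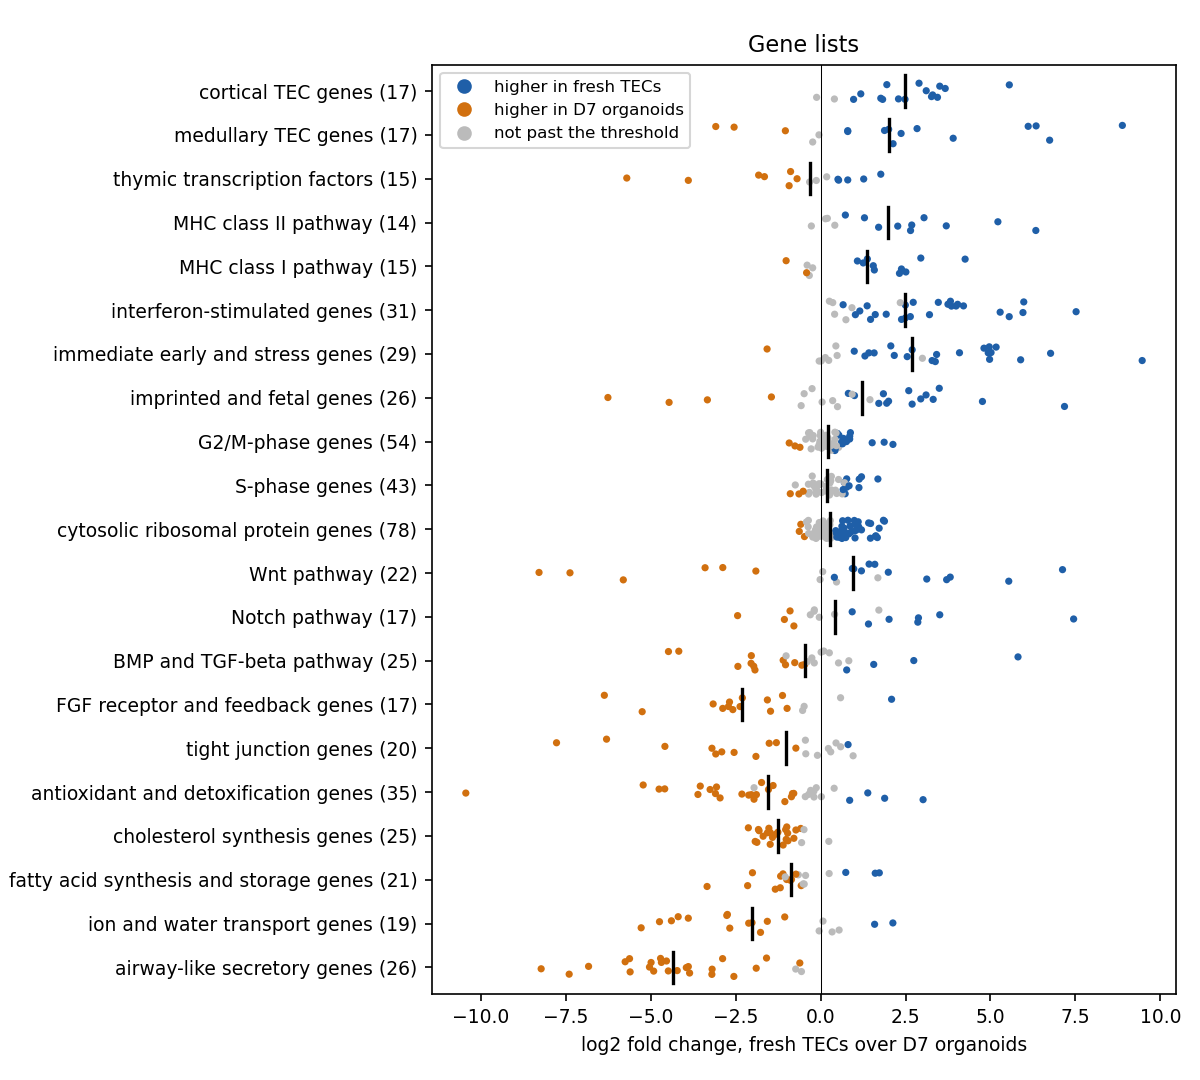
Log2 fold change of fresh TECs over D7 organoids (x axis) for each tested gene of 21 lists (number of genes in parentheses), coloured by the call, with a black bar at the list median. The cortical, medullary, MHC, interferon-stimulated and immediate early lists lie to the right, with medians from 1.38 for MHC class I to 2.69 for immediate early and stress genes, the cell cycle lists lie near 0, and secretory genes lie furthest to the left at -4.35.

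Positions on GRCm39 and identifiers are given for the genes that carry the main comparisons: *Prss16* (ENSMUSG00000006179, chr13:22184773-22193912), *Ctsl* (ENSMUSG00000021477, chr13:64507151-64518704), *Ciita* (ENSMUSG00000022504, chr16:10297923-10347694), *Cxcl10* (ENSMUSG00000034855, chr5:92494497-92496748), *Wfdc2* (ENSMUSG00000017723, chr2:164403475-164411377), *Bpifa1* (ENSMUSG00000027483, chr2:153984800-153991139), *Fmo2* (ENSMUSG00000040170, chr1:162701873-162726295) and *Igfbp4* (ENSMUSG00000017493, chr11:98932064-98945218). Of the 432 genes that the rules for naming chose, 273 have an annotated gene opposite them on the other DNA strand, and whether reads were counted by strand is not given in the sources used here. On the same strand 115 overlap another annotated gene, among them *Fgfr2*, whose annotated span holds many genes. The 3′ ends of 31 share over 10% of their 50-base words with another gene, and of those given values here these are *Trgc2*, *Fabp5*, *H2-DMb2* (12%) and *Hmgb2* (10.1%), whose levels are uncertain.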

How the data were processed

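RNA of 8 libraries was measured by QuantSeq 3′ sequencing, and raw read counts per gene were deposited by the authors, who aligned reads with STAR to GRCm39 per the study's methods. The annotation release, the handling of reads with several matches and the strand of counting are not given in the sources used here. The submitters' processing notes also name R 4.1.2, edgeR and limma. Of 56923 gene IDs, 56236 were matched to a symbol in GENCODE vM39.

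The 4 libraries of fresh TECs and D7 organoids set the filter of at least 1 CPM in at least 2 of them, which kept 14791 genes. All 8 libraries then entered 1 fit with edgeR 4.0.16 (trimmed mean of M values, quasi-likelihood test, no covariates, Benjamini-Hochberg adjustment over all genes kept, R 4.3.3), so that they shared 1 estimate of the spread. The spread is that between 2 labelled biological replicates a group, and an exact test on 2 against 2 cannot go under p = 0.333. Replicates differed beyond counting noise.

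Named genes were the 15 with the largest change in each direction, the 10 most abundant of each group, up to 4 called in each direction and 3 not called per list, any member of the cortical, MHC class II, transcription factor and secretory lists, and near-equal members of the identity and presentation lists. Members and lists were chosen with earlier results of these data known. Alternatives used DESeq2 1.42.0, limma-voom 3.58.1, other scalings and filters, and libraries left out in turn. Promoter windows are RefSeq's on GRCm38.p6, placed on GRCm39 by exact match. Floors were 3 counts over a group, and intervals were exact at 95%. Figures were drawn with matplotlib 3.10.9.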

Additional observations from a re-analysis of the deposited data

How the results depend on the processing

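With each of the 4 libraries left out in turn, the genes higher in fresh TECs numbered 1600 to 2521 and those higher in D7 organoids 1736 to 2708, the lowest of both without D7 replicate 2. The other settings gave 2026 to 2953 and 2013 to 2986 genes, and 1900 and 1835 with an absolute log2 fold change of at least 1. At a mean of 10 CPM, 15 airway-like secretory genes were tested and 14 were higher in D7 organoids. The G2/M-phase genes higher in fresh TECs numbered 6 to 15 with 1 library left out (7 without fresh replicate 1, 11 without D7 replicate 1, 6 without D7 replicate 2), and 3 with an absolute log2 fold change of at least 1. *Scgb3a2* reversed without D7 replicate 2, to a log2 fold change of 2.11 (adjusted p = 0.47, edgeR), and ranged from -13.26 to 2.11 with 1 library left out. The causes were not tested. Of 314 named genes called, 88 lost or reversed the call under at least 1 of 14 alternatives. The labels do not say that a replicate number marks a shared litter or day. Deviations of same-numbered replicates correlated at 0.078 to 0.230 over the 6 pairs of groups (0.190 for fresh TECs and D7 organoids, 9006 genes), all 6 positive and 3 of them over 0.1, and the numbers were not taken as pairs. With the replicate block, 2953 and 2956 genes were called. Depth limits genes at a few counts, for which ratios carry counting intervals.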
